A study of Arabidopsis thaliana with 18 samples.

Results

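The genes described are the 10 Arabidopsis thaliana loci of the PSEUDO-RESPONSE REGULATOR (PRR) family, GIGANTEA (GI) and the evening complex of the circadian clock. They were chosen by locus identifier: PRR9 (AT2G46790), PRR7 (AT5G02810), PRR5 (AT5G24470), PRR3 (AT5G60100), TOC1 (AT5G61380), GI (AT1G22770), ELF3 (AT2G25930), ELF4 (AT2G40080), LUX (AT3G46640) and BOA (AT5G59570). These 10 of the 32678 genes counted were found in the table, and all 10 were among the 19227 genes that passed the filter on low counts. LUX is listed as PCL1 in the reference name table, with LUX as a synonym.

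The plant clock is a loop of transcription factors that repress each other at different times of day. The MYB factors CCA1 and LHY act in the morning, the PRR proteins follow in a wave through the day and repress CCA1 and LHY, and TOC1 is the evening member of that wave. ELF3, ELF4 and LUX form the evening complex, a night repressor of PRR9, PRR7, GI and growth-promoting PIF genes. In leaves the clock times photosynthesis, growth and flowering, and it also times the strength of immune responses.

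Polyadenylated RNA was sequenced from leaves of 4-week-old plants of line ED-P4E1, which holds an estradiol-inducible PAD4 transgene and EDS1 under the 35S promoter of cauliflower mosaic virus in a Col-0 eds1-2 pad4-1 double mutant. EDS1 and PAD4 are partner proteins of plant immunity, and estradiol was sprayed to induce PAD4 in plants that carry the 35S:EDS1 transgene throughout. There were 6 groups of 3 libraries: leaves sprayed with 10 µM estradiol and leaves sprayed with mock (0.2% DMSO), both with 0.01% silwet, taken 6, 12 and 24 h after spraying. All 6 groups carried both mutant alleles and both transgenes, and plants grew at 22 °C with 10 h of light. A line without the transgene was not analysed here, so an effect of estradiol itself and an effect of PAD4 cannot be told apart. The sample labels give no DMSO content for the estradiol spray, so a difference in solvent cannot be told apart either. The sources used here do not give the clock time of spraying. Time after spraying and time of day cannot be told apart.

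Libraries held 19.1 to 48.1 M gene counts, and a count of 3 in 1 library equalled 0.0634 to 0.183 CPM. CPM here are counts per M gene counts (M stands for mega) after TMM scaling, which corrects library totals for differences in composition. PAD4 was 6.84-fold, 19.1-fold and 14.1-fold higher in estradiol than in mock leaves at 6, 12 and 24 h (edgeR quasi-likelihood test, adjusted p 0.000119, 1.88e-07 and 3.05e-08). Of the 4 mesophyll markers, RBCS1A was at 11872 to 28189 CPM, CA1 at 2728 to 8694 CPM, LHCB1.1 at 46.2 to 7489 CPM and LHCB2.1 at 4.62 to 4024 CPM over the libraries, while the flower gene LFY and the root gene PLT1 had 0 counts in all 18; the flower gene AG (0.521 to 2.92 CPM) and the root gene SHR (5.03 to 12.0 CPM) were detected in each. The labels do not tell whether the 3 libraries of a group stem from different plants. The p-values therefore reflect variation among libraries, which may be technical. In whole leaves, fewer cells of a type and less RNA per cell cannot be told apart.

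The sequence just upstream of a gene start can hold the binding sites of clock proteins, so the 300 bases before each annotated start were searched on both strands. They were read from the RefSeq assembly TAIR10.1 with its own annotation, by locus identifier, since the count table has no coordinates. Of the 10 genes, 4 held the evening element AAAATATCT, the word to which CCA1 and related MYB factors bind: PRR5, TOC1, LUX and BOA. The word occurred upstream of 2.79% of 27443 protein-coding genes on the nuclear chromosomes. PRR5 also held the CCA1 binding site AAAAATCT, found upstream of 7.94% of genes. PRR9, PRR7, LUX and BOA held the G-box CACGTG, a core of light-responsive promoters, found upstream of 7.09% of genes. The LUX site GATACG (5.51% of genes) occurred upstream of ELF3 and ELF4, and its variant GATTCG (9.34%) upstream of PRR9. None of these words was found upstream of PRR3 or GI in this window. No match overlapped another.

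The upstream stretches of TOC1, LUX and BOA, which have an evening element and an annotated 5′ end outside the coding sequence, are shown first, then those of the 2 day genes with a G-box, each read 5′ to 3′ towards the gene. Capitals mark the words found, on either strand. The coordinates in TAIR10.1 are chr5:24674663-24674962 (plus strand) for TOC1, chr3:17182742-17183041 (plus strand) for LUX, chr5:24003588-24003887 (plus strand) for BOA, chr2:19232307-19232606 (plus strand) for PRR9 and chr5:642031-642330 (minus strand) for PRR7.
TOC1: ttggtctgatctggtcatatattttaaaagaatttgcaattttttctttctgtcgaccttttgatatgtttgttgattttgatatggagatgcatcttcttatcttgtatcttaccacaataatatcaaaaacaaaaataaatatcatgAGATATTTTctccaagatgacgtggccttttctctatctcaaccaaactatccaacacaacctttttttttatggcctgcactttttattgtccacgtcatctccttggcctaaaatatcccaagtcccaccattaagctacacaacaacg
LUX: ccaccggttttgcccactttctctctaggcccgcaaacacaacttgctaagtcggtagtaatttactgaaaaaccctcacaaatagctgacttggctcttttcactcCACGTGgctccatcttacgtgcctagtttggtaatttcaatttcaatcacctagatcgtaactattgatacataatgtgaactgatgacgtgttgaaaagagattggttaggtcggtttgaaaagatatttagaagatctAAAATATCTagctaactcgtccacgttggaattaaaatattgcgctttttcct
BOA: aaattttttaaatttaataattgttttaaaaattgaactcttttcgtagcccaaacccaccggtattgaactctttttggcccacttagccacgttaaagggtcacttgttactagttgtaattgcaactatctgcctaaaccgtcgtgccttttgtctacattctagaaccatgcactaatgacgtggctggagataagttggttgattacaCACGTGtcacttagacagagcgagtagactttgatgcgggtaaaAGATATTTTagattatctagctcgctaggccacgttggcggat
PRR9: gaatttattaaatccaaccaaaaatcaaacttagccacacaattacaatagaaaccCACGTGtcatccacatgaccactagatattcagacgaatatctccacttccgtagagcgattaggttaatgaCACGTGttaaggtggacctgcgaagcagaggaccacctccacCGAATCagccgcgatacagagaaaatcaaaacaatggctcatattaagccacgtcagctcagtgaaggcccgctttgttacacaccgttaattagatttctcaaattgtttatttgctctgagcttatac
PRR7: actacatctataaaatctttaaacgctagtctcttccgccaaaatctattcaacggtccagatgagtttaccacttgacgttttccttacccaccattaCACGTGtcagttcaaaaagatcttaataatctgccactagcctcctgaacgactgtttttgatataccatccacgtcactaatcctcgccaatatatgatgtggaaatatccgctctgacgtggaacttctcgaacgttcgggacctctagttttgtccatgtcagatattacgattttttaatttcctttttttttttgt

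In TOC1 the evening element begins 151 bases before the annotated start, in LUX 53 bases and in BOA 43 bases before it. The PRR9 G-boxes begin 244 and 172 bases and that of PRR7 201 bases before the start. For PRR5 only 30 bases are shown, those from 202 to 173 bases before the annotated start at chr5:8358719-8358748 (minus strand), where the CCA1 binding site and 1 of its 2 evening elements lie side by side. The other evening element begins 292 bases before that start.
PRR5: cgctAGATTTTTtctAGATATTTTcttttc

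In mock leaves all 10 transcripts changed between 24 h and 12 h, and 9 of them between 12 h and 6 h. At 12 h against 6 h, 4 genes rose and 5 fell of the 10, where 64.3% of all genes tested were called, 33.7% higher and 30.6% lower. At 24 h against 12 h, 3 rose and 7 fell (75% of all genes called, 35.9% higher and 39.1% lower), and at 24 h against 6 h, 1 rose and 8 fell (66.2% of all genes called, 34.3% higher and 31.9% lower). The median size of change at 24 h against 12 h was 5.76 on the log2 scale over the 10 genes and 0.62 over all genes. Each of these comparisons shares a mock group with the others, and with the comparisons of estradiol and mock leaves, so they are not independent.

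**Figure D1:**
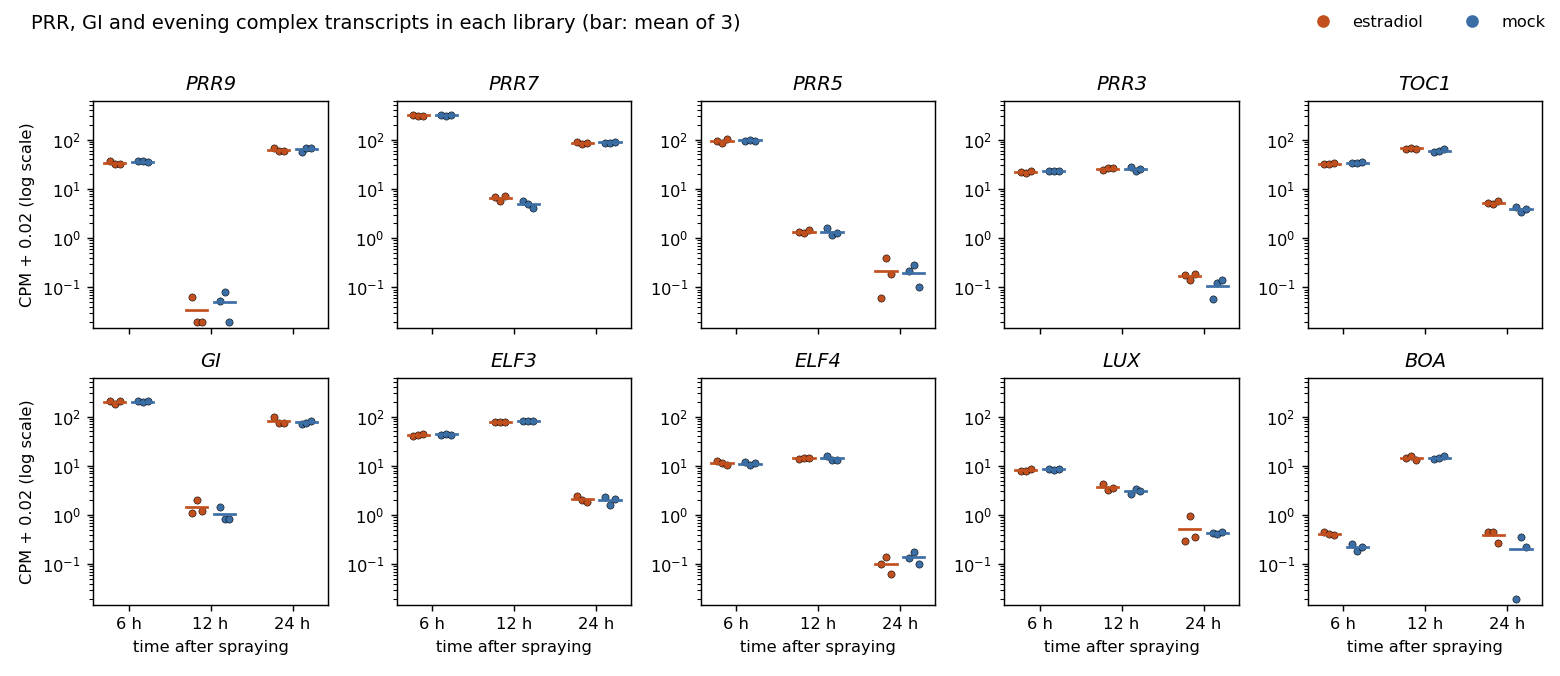
Level of each gene in every library, as CPM + 0.02 on a log axis (vertical) at 6, 12 and 24 h after spraying (horizontal), with estradiol leaves in orange left of mock leaves in blue and a bar at the mean of 3 libraries. Times differ far more than treatments: in mock leaves PRR9 averaged 35.9, 0.0306 and 63.5 CPM at the 3 times.

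PRR9, PRR7 and GI were lowest at 12 h. PRR9, the earliest repressor of the PRR wave, had 36.9, 32.3 and 32.0 CPM in estradiol leaves at 6 h, against 36.8, 36.2 and 34.7 CPM in mock leaves. At 12 h its raw counts were 2, 0 and 0 in estradiol leaves, against 1, 2 and 0 in mock leaves. At 24 h it stood at 66.9, 59.0 and 59.2 CPM in estradiol leaves, against 55.9, 66.0 and 68.6 CPM in mock leaves. The treatments thus overlapped at each time, and both were at or under 3 counts in all at 12 h. In mock leaves the ratio of counts at 24 h over 12 h was 2275 (exact 95% interval 778 to 11037), and the count at 6 h was 1278 times that at 12 h (437 to 6199). Such intervals cover counting error only.

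PRR7, the partner of PRR9 in repressing CCA1 and LHY, was highest at 6 h, with 320.4, 301 and 306 CPM in estradiol leaves, against 322, 301 and 319 CPM in mock leaves. At 24 h it was at 88.5, 83.2 and 85.2 CPM in estradiol leaves, against 86.7, 86.5 and 89.6 CPM in mock leaves. In mock leaves it was 65.1-fold lower at 12 h than at 6 h and 18.2-fold higher at 24 h than at 12 h (adjusted p 5.63e-19 and 1.11e-17). GI, a large protein that stabilises the blue-light receptor ZTL and promotes flowering with FKF1, had the same order of times. It averaged 197 ± 13.4, 1.41 ± 0.496 and 81.5 ± 12.7 CPM at 6, 12 and 24 h in estradiol leaves, and 199.9 ± 6.28, 1.02 ± 0.373 and 76.1 ± 5.77 CPM in mock leaves (mean ± SD, n = 3). Its swing in mock leaves was 198-fold down at 12 h against 6 h and 75.5-fold up at 24 h against 12 h (adjusted p 1.32e-16 and 7.43e-16).

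PRR5, which follows PRR7 in the wave, fell at both steps. It averaged 94.1 ± 8.54, 1.32 ± 0.107 and 0.191 ± 0.164 CPM at 6, 12 and 24 h in estradiol leaves, and 96.6 ± 2.92, 1.33 ± 0.258 and 0.177 ± 0.0913 CPM in mock leaves. The 17 counts in mock leaves at 24 h against 8577 at 6 h give a level 507 times lower (exact 95% interval 316 to 870). LUX, the DNA-binding subunit of the evening complex, had the same order at smaller scale. It averaged 8.14 ± 0.498, 3.69 ± 0.506 and 0.511 ± 0.350 CPM at 6, 12 and 24 h in estradiol leaves, and 8.46 ± 0.257, 3.01 ± 0.390 and 0.417 ± 0.0248 CPM in mock leaves. In mock leaves LUX was 2.81-fold lower at 12 h than at 6 h (adjusted p 1.63e-07).

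TOC1, PRR3, ELF3, ELF4 and BOA had their highest mean at 12 h and their lowest at 24 h. TOC1, which closes the PRR wave, had 32.2, 31.9 and 33.3 CPM in estradiol leaves at 6 h, against 34.1, 33.3 and 35.2 CPM in mock leaves. In mock leaves it was 1.73-fold higher at 12 h than at 6 h and 15.7-fold lower at 24 h than at 12 h (adjusted p 8.74e-10 and 1.50e-18). PRR3, which protects TOC1 from ZTL-mediated turnover, averaged 21.9 ± 0.618, 25.8 ± 1.11 and 0.150 ± 0.0252 CPM at 6, 12 and 24 h in estradiol leaves, and 22.7 ± 0.233, 25.1 ± 2.22 and 0.0877 ± 0.0438 CPM in mock leaves. Its difference between 12 h and 6 h in mock leaves, 0.14 on the log2 scale, did not pass the test (adjusted p 0.0699), although the libraries did not overlap, as was so for 71.8% of all genes. The difference was called with upper-quartile scaling (0.16, adjusted p 0.0400) and without mock replicate 2 of 12 h (0.20, adjusted p 0.0219).

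ELF3, the scaffold of the evening complex, averaged 42.6 ± 1.89, 78.3 ± 0.695 and 2.06 ± 0.280 CPM at 6, 12 and 24 h in estradiol leaves, and 43.4 ± 1.30, 79.96 ± 0.599 and 1.99 ± 0.383 CPM in mock leaves. ELF4, the small protein that promotes its nuclear function, averaged 11.4 ± 0.893, 14.1 ± 0.219 and 0.0814 ± 0.0398 CPM in estradiol leaves at those times, and 11.1 ± 0.846, 14.1 ± 1.32 and 0.117 ± 0.0384 CPM in mock leaves. In mock leaves at 12 h against 6 h ELF3 was 1.84-fold and ELF4 1.27-fold higher (adjusted p 5.99e-10 and 0.00226). At 24 h against 12 h ELF3 was 41.0-fold lower, and the 11 ELF4 counts against 1497 give a level 114 times lower (63.4 to 228).

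BOA, a close relative of LUX, was the only one of the 10 with a single peak at 12 h and low levels on both sides. At 12 h it had 14.3, 15.8 and 13.3 CPM in estradiol leaves, against 13.8, 14.1 and 15.6 CPM in mock leaves. In mock leaves the 1565 counts at 12 h against 18 at 6 h give a level 72.3 times higher (45.6 to 122), and 18 counts were also found at 24 h. Its levels in mock leaves at 24 h and 6 h did not differ beyond their spread (ratio 0.996, exact 95% interval 0.489 to 2.03, edgeR adjusted p 0.982). The mock counts at 24 h were scattered, at 0, 13 and 5, and the interval of summed counts does not include that scatter.

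The order of the 3 times by mean level was the same in estradiol and mock leaves for all 10 genes. In the order over all 6 groups the estradiol and mock leaves of 1 time were neighbours for 9 genes; for BOA the low 6 h and 24 h groups were mixed. The highest mean level over the lowest was 47.6 in estradiol leaves and 64.6 in mock leaves for PRR7. It was 12.7 in estradiol leaves and 15.5 in mock leaves for TOC1, and 140 in estradiol leaves and 195 in mock leaves for GI. For PRR9 it was larger in estradiol leaves (4383, against 2075 in mock leaves), as for ELF4 (173, against 120). Both had few counts at their lowest time. For the genes other than PRR9 and ELF4 it was smaller in estradiol leaves. Of these, PRR5, PRR3, LUX and BOA also had under 60 counts a group at their lowest time. These ratios were not tested.

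Levels of different genes were set side by side only per length, as CPM per kb of the exons annotated in TAIR10.1. At 6 h PRR7 led in both treatments, with 95.7 ± 3.10 CPM per kb in estradiol leaves and 97.1 ± 3.54 CPM per kb in mock leaves. At 12 h ELF3 led, with 28.5 ± 0.253 CPM per kb in estradiol leaves and 29.1 ± 0.218 CPM per kb in mock leaves. At 24 h PRR9 had the highest mean, 28.8 ± 2.11 CPM per kb in estradiol leaves and 29.7 ± 3.15 CPM per kb in mock leaves. It was followed by PRR7, with 26.5 ± 0.826 CPM per kb in estradiol leaves and 27.1 ± 0.546 CPM per kb in mock leaves. The difference between both means was under the SD of PRR9 in mock leaves and slightly above it in estradiol leaves.

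The comparison of estradiol with mock leaves at each time asks whether inducing PAD4 beside EDS1 alters these transcripts. At 6 h the treatments were close, and 0 of the 10 genes were called by edgeR's quasi-likelihood test with Benjamini-Hochberg adjustment over all genes tested, where 0.0364% of all genes were called. The count was also 0 by DESeq2, by limma-voom and at an unadjusted p under 0.05, which 7.57% of all genes reached. For the 9 genes other than BOA the log2 difference lay between -0.09 for PRR9 and 0.04 for ELF4. The 95% intervals of these log2 differences reached no lower than -0.37 and no higher than 0.26, both for LUX.

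BOA at 6 h was low in both treatments but did not overlap, with raw counts of 9, 11 and 10 in estradiol leaves, against 7, 4 and 7 in mock leaves. As CPM these were 0.427, 0.394 and 0.377 in estradiol leaves, against 0.232, 0.168 and 0.200 in mock leaves. The ratio of summed counts was 1.97 (exact 95% interval 1.06 to 3.75), and the difference did not pass the test (adjusted p 0.659). It was the only 1 of the 10 genes without overlap at 6 h, where 13.9% of all genes did not overlap. AT5G59580 lies over 1896 bases of BOA on the opposite strand, and whether the counting used strand is not given in the sources used here. That gene had 0.215 to 1.36 CPM in estradiol leaves at 6 h, against 0.126 to 0.285 CPM in mock leaves, and its part in the BOA value was not tested.

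At 12 h PRR7, then at its lowest, was the 1 of the 10 genes that passed the test, and it was higher in estradiol leaves. Of all genes, 9.71% were called at 12 h and 4.64% were called higher. PRR7 had 6.78, 5.62 and 7.10 CPM in estradiol leaves, against 5.57, 4.93 and 4.08 CPM in mock leaves. Each estradiol library stood above each mock library, by a narrow margin between 5.62 and 5.57 CPM. The log2 difference was 0.43 ± 0.10 (SE; 95% interval 0.23 to 0.64), a 1.35-fold higher level (edgeR quasi-likelihood test, adjusted p 0.00956). The call was lost without mock replicate 3 (log2 difference 0.31, adjusted p 0.0654), without estradiol replicate 1 (0.40, adjusted p 0.0672) and when the 12 h libraries alone were fitted (0.44, adjusted p 0.0697).

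TOC1, at its highest at 12 h, had 65.0, 68.7 and 66.0 CPM in estradiol leaves, against 55.7, 57.7 and 63.7 CPM in mock leaves. The groups did not overlap, but the 1.13-fold difference fell short of the threshold in edgeR's test (log2 difference 0.17, 95% interval 0.05 to 0.29, adjusted p 0.0593). Limma-voom gave an adjusted p of 0.0288 for the same difference, and without mock replicate 3 edgeR gave 0.0291 at a log2 difference of 0.23. ELF3 was the third gene without overlap, with 78.5, 78.9 and 77.5 CPM in estradiol leaves, against 80.3, 80.3 and 79.3 CPM in mock leaves. That is a log2 difference of -0.03 (95% interval -0.16 to 0.10, adjusted p 0.819), and 31.5% of all genes did not overlap at 12 h.

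GI, LUX and PRR5 were low at 12 h, with 107 to 435 counts per group, and their intervals were wider. GI had 1.06, 1.98 and 1.19 CPM in estradiol leaves, against 1.46, 0.812 and 0.806 CPM in mock leaves, and the groups overlapped. Its log2 difference was 0.47 (95% interval -0.10 to 1.03, adjusted p 0.309). LUX had 4.25, 3.25 and 3.58 CPM in estradiol leaves, against 2.59, 3.37 and 3.06 CPM in mock leaves, with a log2 difference of 0.30 (-0.05 to 0.65, adjusted p 0.280). For PRR5 the log2 difference was 0.00 (-0.40 to 0.41). For PRR9 no fold is given at 12 h, since both treatments were at or under 3 counts.

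PRR3, ELF4 and BOA, all at their highest at 12 h, differed little between treatments. The log2 difference was 0.04 (95% interval -0.10 to 0.18) for PRR3, 0.00 (-0.18 to 0.18) for ELF4 and -0.01 (-0.32 to 0.30) for BOA. Differences of a size within those intervals are not excluded.

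**Figure D2:**
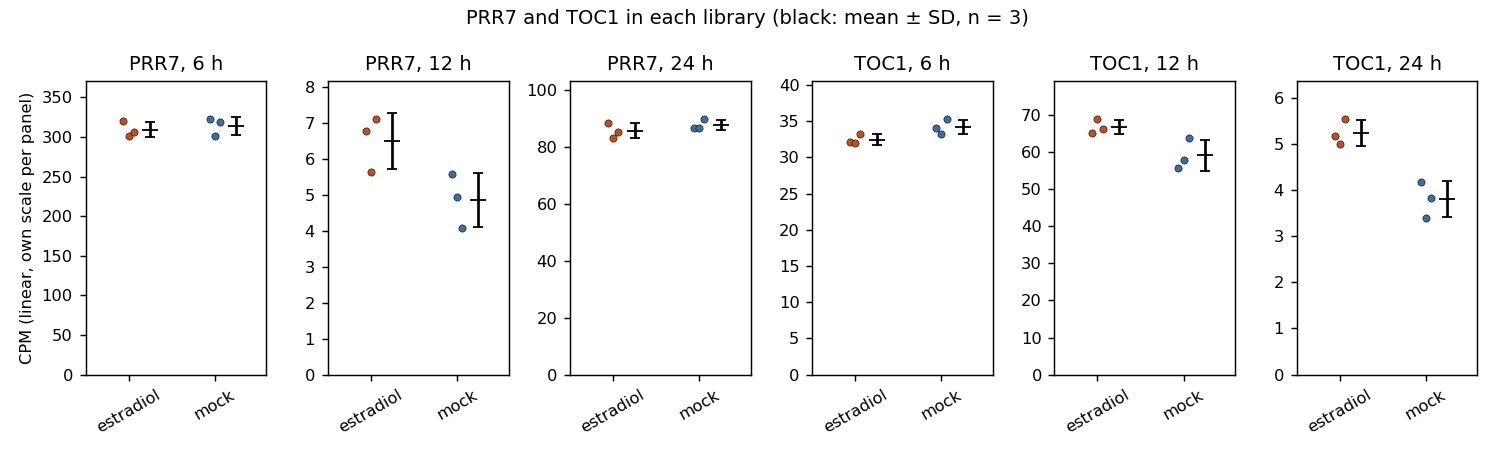
CPM of PRR7 and TOC1 in every library at 6, 12 and 24 h on linear axes with a scale for each panel, with estradiol leaves left of mock leaves and the mean ± SD of 3 libraries in black. PRR7 averaged 6.50 CPM in estradiol leaves and 4.86 CPM in mock leaves at 12 h, and TOC1 averaged 5.23 CPM in estradiol leaves and 3.80 CPM in mock leaves at 24 h.

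At 24 h TOC1, then at its lowest, was the 1 gene that passed the test, again higher in estradiol leaves. Of all genes, 15% were called at 24 h and 8.43% were called higher. TOC1 had 5.18, 4.99 and 5.53 CPM in estradiol leaves, against 4.18, 3.40 and 3.82 CPM in mock leaves. All 3 estradiol libraries stood above all 3 mock libraries. The log2 difference was 0.48 ± 0.09 (SE; 95% interval 0.29 to 0.67), a 1.39-fold higher level (edgeR quasi-likelihood test, adjusted p 0.00125). The call held without any 1 of the 6 libraries, with adjusted p from 0.000774 to 0.0268, and was lost when the 24 h libraries alone were fitted (log2 difference 0.49, adjusted p 0.0545).

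PRR9, PRR7 and GI, well above their 12 h levels at 24 h, differed little between treatments. The log2 difference was -0.04 for PRR9 (95% interval -0.23 to 0.15), -0.03 for PRR7 (-0.19 to 0.12) and 0.10 for GI (-0.15 to 0.35). GI had 96.1, 73.9 and 74.3 CPM in estradiol leaves, against 70.9, 75.1 and 82.3 CPM in mock leaves, so that 1 estradiol library stood above the other 5. ELF3, at 2.37, 2.01 and 1.82 CPM in estradiol leaves, against 2.32, 1.57 and 2.09 CPM in mock leaves, overlapped too (log2 difference 0.09, -0.19 to 0.37).

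The remaining 5 genes had 5 to 37 counts per group at 24 h, and their ratios are of summed counts with exact 95% intervals. PRR5 had a ratio of 0.890 (0.377 to 2.01) and ELF4 of 0.625 (0.170 to 1.95). PRR3, with counts of 4, 2 and 4 in estradiol leaves, against 1, 4 and 3 in mock leaves, had a ratio of 1.72 (0.611 to 5.01). LUX had a ratio of 1.12 (0.665 to 1.85) and BOA of 1.83 (0.954 to 3.59). BOA counts were 11, 7 and 6 in estradiol leaves, against 0, 13 and 5 in mock leaves. Leaving out 1 library, its log2 difference ranged from 0.37 to 1.87. None of the 5 passed the test (adjusted p 0.259 to 0.890). PRR3 did not overlap as CPM, and with TOC1 it made 2 of the 10 genes, where 28.2% of all genes did not overlap.

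**Figure D3:**
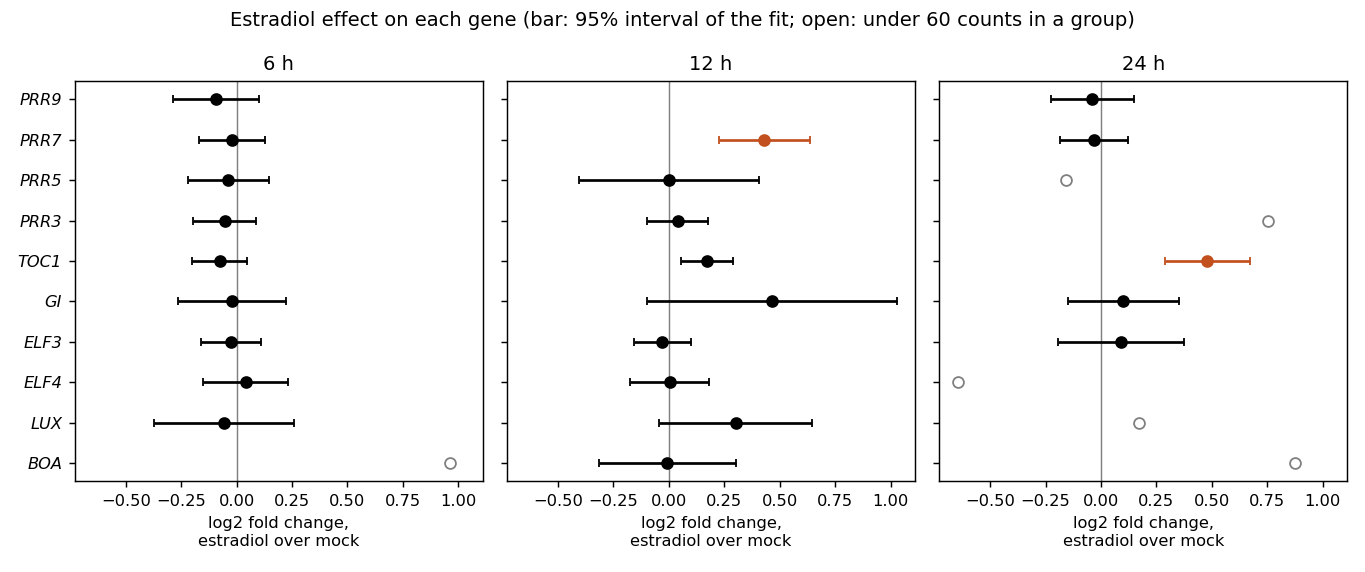
Log2 difference of estradiol and mock leaves for each gene at 6, 12 and 24 h, with bars for the 95% interval of the edgeR fit; open circles without a bar had under 60 counts in a group, and PRR9 at 12 h is left out. In orange, PRR7 at 12 h (0.43) and TOC1 at 24 h (0.48) are the called differences.

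Summed marker levels stood apart between treatments for some cell types and overlapped for others. The summed level of 4 mesophyll markers at 12 h was 15015 to 15984 CPM in estradiol leaves, against 16678 to 17525 CPM in mock leaves, and that of 4 epidermis and guard cell markers was 189.1 to 193.9 CPM, against 206.3 to 207.4 CPM in mock leaves. At 24 h the mesophyll sum was 37137 to 43797 CPM in estradiol leaves, against 39919 to 48002 CPM in mock leaves, and the epidermis and guard cell sum 439.6 to 485.6 CPM, against 493.4 to 528.8 CPM in mock leaves. The 3 vascular markers summed to 384.5 to 428.8 CPM in estradiol leaves at 12 h, against 417.2 to 442.6 CPM in mock leaves. The 3 root markers summed to more at 12 h without overlap, 8.87 to 9.63 CPM in estradiol leaves, against 7.28 to 7.58 CPM in mock leaves. Their sums overlapped at 24 h. These root sums were mostly SHR, since PLT1 had 0 counts in all 18 libraries and WOX5 was at most 0.645 CPM. The mesophyll sum at 24 h and the vascular sum at 12 h overlapped, while the mesophyll sum at 12 h and the epidermis and guard cell sum at both times did not. The part of these levels in the PRR7 and TOC1 values was not tested.

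Whether the estradiol effect itself changed between times was tested by the interaction. For the change at 12 h against 6 h, 0 of the 10 genes were called by edgeR, where 0.791% of all genes were called. PRR7 and TOC1 had an unadjusted p under 0.05, as had 12.8% of all genes. Limma-voom called 0 and DESeq2 called PRR7, 1 of the 412 genes it called, against 152 called by edgeR. The change was 0.45 ± 0.12 on the log2 scale for PRR7 (edgeR adjusted p 0.0853) and 0.25 ± 0.08 for TOC1 (adjusted p 0.175). For the change at 24 h against 12 h, edgeR again called 0, where 2.12% of all genes were called. Limma-voom called 0 and DESeq2 called PRR7, 1 of the 565 genes it called, against 407 called by edgeR. PRR7 and TOC1 again had an unadjusted p under 0.05, as had 12.1% of all genes, with changes of -0.46 ± 0.12 for PRR7 (adjusted p 0.0578) and 0.31 ± 0.11 for TOC1 (adjusted p 0.194). By edgeR's test, then, neither effect was shown to belong to 1 time.

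Over the 10 genes the median log2 difference between treatments was -0.03 at 6 h, 0.02 at 12 h and 0.10 at 24 h. Over all genes tested it was 0.01 at 6 h, -0.01 at 12 h and -0.03 at 24 h. The median size of difference over the 10 genes was 0.05 at 6 h, 0.11 at 12 h and 0.16 at 24 h, and over all genes 0.08, 0.12 and 0.14 at those times. The medians over the 10 genes include PRR9 at 12 h and the other genes with under 60 counts in a group.

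Other genes of the clock and its inputs and outputs were counted in 5 lists. At 6 h none of the 14 morning MYB and LNK genes, 14 partners and modifiers of evening clock proteins, 5 relatives of ELF4 and LUX, 12 tested output genes and 10 photoreceptors was called by edgeR, DESeq2 or limma-voom. At an unadjusted p under 0.05, which 7.57% of all genes reached, there was 1 morning gene, 1 relative and 1 output gene. FT, the mobile flowering signal, was the 1 gene of 13 outputs with too few counts to test.

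At 12 h every call by edgeR in these lists was lower in estradiol leaves, where 5.07% of all genes were called lower. Of the 14 morning genes 2 fell: RVE2, a MYB relative of CCA1, and RVE4, an activator of evening genes. RVE2 averaged 30.7 ± 3.37 CPM in estradiol leaves and 57.4 ± 8.22 CPM in mock leaves (log2 difference -0.91, adjusted p 0.000125). RVE4 averaged 31.7 ± 2.01 CPM in estradiol leaves and 42.9 ± 3.97 CPM in mock leaves (log2 difference -0.44, adjusted p 0.000743). RVE4 was also called in the test of change against 6 h (log2 -0.46, adjusted p 0.0393). The list's median was -0.18, against -0.01 over all genes, but it includes genes with few counts at 12 h. LNK3 averaged 0.0256 CPM in estradiol and 0.0901 CPM in mock leaves, and ASG4 0.0172 and 0.0543 CPM. RVE7 averaged 0.145 CPM in estradiol and 0.159 CPM in mock leaves. The median is thus no measure of a fall across the list.

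Of the 10 photoreceptors 3 fell at 12 h, the blue-light receptors PHOT1, PHOT2 and CRY1. PHOT1 averaged 144 ± 14.0 CPM in estradiol leaves and 191 ± 4.85 CPM in mock leaves (log2 difference -0.41), and CRY1 91.9 ± 4.58 CPM in estradiol leaves and 108 ± 7.21 CPM in mock leaves (-0.23). PHOT1 was also called in the test of change against 6 h (log2 -0.37, adjusted p 0.0464). Limma-voom also called 1 photoreceptor higher. Of the 14 partners 1 fell, TZP (log2 difference -0.35). No output gene and no relative was called by any of the 3 tools.

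At 24 h, where 6.54% of all genes were called lower, 2 of 12 outputs and 3 of 10 photoreceptors fell. The outputs were CDF3, a DOF factor of the GI flowering pathway, with 47.5 ± 3.06 CPM in estradiol leaves and 56.5 ± 6.45 CPM in mock leaves (log2 difference -0.25), and PIF5, a growth-promoting factor repressed by the evening complex (-0.19). The photoreceptors were PHYC (-0.20), CRY1 (-0.20) and PHOT1 (-0.21). No gene of the other 3 lists was called by edgeR or DESeq2, and limma-voom called 1 morning gene lower.

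**Figure D4:**
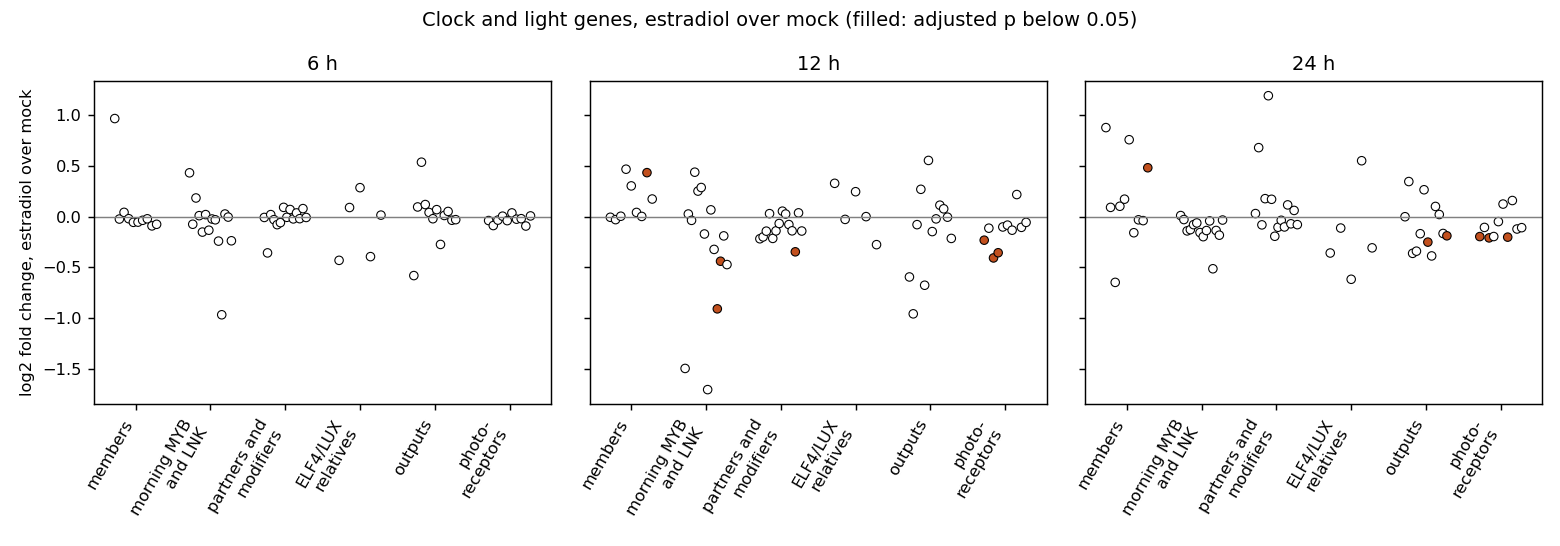
Log2 difference of estradiol and mock leaves for the 10 PRR, GI and evening complex genes (labelled members; PRR9 at 12 h left out) and for the 5 lists at 6, 12 and 24 h, 1 point per tested gene, filled where called. In the 5 lists the filled points at 12 h, such as RVE2 (-0.91) and PHOT1 (-0.41), lie below 0, while PRR7 (0.43) lies above. Open points include genes with few counts, such as LNK3 and ASG4 at 12 h.

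For each of the 10 genes the nearest other named genes in pattern were found by the root mean square difference of centred mean log2 CPM over the 6 groups, among 8345 genes. A smaller value is a closer pattern, and the median over all candidates was 1.66 to 4.31. TOC1 was nearest to TMT1 (0.107) and BBX8 (0.176). LUX was nearest to RABA1c (0.143) and ELF3 to RIBA2 (0.162). GI was nearest to EPR1 (0.243), PRR7 to CYP71B26 (0.279) and ELF4 to GRP7 (0.304). EPR1 is another name of RVE7 of the morning list, which had few counts at 12 h. PRR9 was nearest to BBX28 (0.352) and PRR3 to MEE14 (0.486). The least close were BOA, nearest to BZS1 (0.680), and PRR5, nearest to PORB (0.880). The groups share libraries with all candidates, and these values are a description with no test.

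LUX and ELF3 also overlap genes of the opposite strand. AT3G46650 shares 1507 bases with LUX and had 8.22 to 10.0 CPM in estradiol leaves at 24 h, against 9.88 to 12.4 CPM in mock leaves, when LUX itself was under 1 CPM in every library. AT2G25940 shares 24 bases with ELF3 and stayed at or under 0.428 CPM in all groups. Reads that the counting classed as ambiguous, 1.85 to 2.17% of a library, were among those left out. The overlaps are those of TAIR10.1, while the processing notes name TAIR10. Whether reads of such partners were counted for LUX, ELF3 or BOA was not tested.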

How the data were processed

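Polyadenylated leaf RNA of 18 libraries (6 groups of 3) was analysed from raw read counts per gene deposited by the authors. The submitters' processing notes name FastQC 0.11.2, TopHat2 2.0.10, HTSeq and genome TAIR10; the strand setting is not given in the sources used here. Reads assigned to no gene (5 classes, 5.76 to 6.71% of a library) were left out. Counts were scaled by TMM, filtered with filterByExpr (minimum count 10, minimum total 15) and tested with edgeR 4.0.16 (R 4.3.3), glmQLFit and glmQLFTest, in 1 fit over all 18 libraries with 1 coefficient per group. Genes were called at a Benjamini-Hochberg adjusted p below 0.05 over 19227 genes. The coefficient of variation between libraries estimated by edgeR was 8.26%, with 12 residual degrees of freedom. DESeq2 1.42.0, limma-voom (limma 3.58.1), other scalings, filters and thresholds, a replicate block and leaving out each library were alternatives. For groups with under 60 counts of a gene, ratios of summed counts are given with exact 95% intervals.

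Named genes were all 10 clock genes, PAD4 and EDS1 as label checks, called genes of the 5 lists (up to 4 each) and the nearest genes in pattern. The 10 genes and the lists were chosen with earlier results of these data known. Symbols came from the TAIR10.1 gene table, which held 31912 of the 32678 loci. Same-numbered libraries did not deviate together (r from -0.16 to 0.198 over 9 pairs).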

Additional observations from a re-analysis of the deposited data

How the results depend on the processing

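The number of the 10 genes called stayed within 1.5 times in 130 of 140 combinations of comparison and alternative setting. These include all 16 fits of each of the 3 mock time comparisons. In them 6 to 10 genes were called at 12 h against 6 h, 10 at 24 h against 12 h and 8 to 9 at 24 h against 6 h. For estradiol against mock the number stayed within 1.5 times in 16 of 16 fits at 6 h, 12 of 16 at 12 h and 14 of 16 at 24 h. For the tests of change it did in 21 of 22 fits for 12 h against 6 h and 19 of 22 for 24 h against 12 h. DESeq2 called 1 gene, PRR7, in each test of change (adjusted p 0.00466 for 12 h against 6 h), where edgeR called 0. Of all genes, DESeq2 called 412 for 12 h against 6 h and 565 for 24 h against 12 h. EdgeR called 152 and 407 of all genes in these tests. Limma-voom called 2 genes at 12 h, and 2338 of all genes, against 1867 of all genes by edgeR. Fitting only the libraries compared gave 0 at 12 h and 0 at 24 h, where 2114 and 1686 of all genes were called. Asking for at least a 2-fold difference also gave 0 at 12 h and 0 at 24 h, where 241 and 544 of all genes were called. Leaving out 1 library gave 0 to 1 calls at 12 h and 0 to 1 for the change at 24 h against 12 h. Without estradiol replicate 1 of 12 h, 0 were called at 12 h, where 551 of all genes were called. Without mock replicate 1 or estradiol replicate 2 of 12 h, PRR7 was called for that change, where 315 and 273 of all genes were called. The replicate block changed no call: the paired fit gave a log2 difference of 0.43 for PRR7 at 12 h (adjusted p 0.00965), 0.47 for TOC1 at 24 h (0.00151) and 0.17 for TOC1 at 12 h (0.0577). The numbers share no stated origin, and the best partner of a library pair had the same number in 5 of 9 cases. The cause of the lost calls was not tested.

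Signs turned in 48 of 1181 combinations of gene, comparison and alternative setting, in 20 results with adjusted p of 0.626 or more in the main edgeR fit. For ELF3, the change at 12 h against 6 h was 0.0059 with DESeq2 size factors, 0.0050 with upper-quartile scaling, 0.0041 by DESeq2 and 0.0120 with only the libraries compared. BOA at 12 h was 0.0033 with only the libraries compared. Leaving out 1 library gave these ranges of log2 difference between treatments. At 6 h they were -0.055 to 0.0078 for ELF3, -0.015 to 0.095 for ELF4, -0.051 to 0.030 for GI and -0.104 to 0.023 for PRR5. At 12 h they were -0.074 to 0.050 for BOA, -0.037 to 0.082 for ELF4, -0.015 to 0.109 for PRR3 and -0.099 to 0.147 for PRR5. At 24 h they were -0.089 to 0.215 for ELF3, -0.037 to 0.164 for GI, -0.420 to 0.482 for LUX, -0.858 to 0.389 for PRR5 and -0.124 to 0.018 for PRR9. For the change at 12 h against 6 h they were -0.038 to 0.024 for ELF3, -0.092 to 0.040 for ELF4 and -0.063 to 0.184 for PRR5. For the change at 24 h against 12 h they were -0.059 to 0.245 for ELF3, -0.721 to 0.181 for LUX and -0.858 to 0.387 for PRR5. For BOA in mock leaves at 24 h against 6 h the range was -1.017 to 0.483. Depth limits BOA at 6 h, PRR9 at 12 h and PRR5, PRR3, ELF4, LUX and BOA at 24 h, which had under 60 counts a group.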
